A study of Mus musculus with 40 samples.

Results

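The 3 genes described here, Dnmt3a, Dnmt3b and Dnmt3l, encode the de novo DNA methyltransferase machinery, and they were picked by their symbols from tables that list 55276 genes (genotype and time course tables) or 55291 genes (Pramel7 table). All 3 of 3 were counted in each of 34 RNA-seq libraries of the mouse line E14tg2a, embryonic stem cells kept in serum with leukaemia inhibitory factor. The study removes CtBP, a corepressor of transcription with 2 genes (Ctbp1 and Ctbp2), alone or together with Dux, a transcription factor of early cleavage embryos. In the genotype table, 2 libraries stand for each group: WT cells, CtbpDKO (knockout of both Ctbp genes), DuxKO (knockout of Dux), Ctbp_DuxTKO (both Ctbp genes and Dux), Dppa2KO (knockout of Dppa2, a chromatin factor of pluripotent cells) and DKO_Dppa2_KO. The last pair has conflicting labels, since its title names Dppa2 and Dux and its description names the Ctbp double knockout with Dppa2, and the description was used. The Pramel7 table holds 4 WT libraries (replicates 3 to 6) and 2 libraries each of DuxKO (replicates 3 and 4), P7KO (Pramel7 knockout), P7OE (Pramel7 overexpression) and DuxKO_P7OE (Pramel7 overexpression in DuxKO cells). The time course holds 2 libraries each of CtbpDKO cells on days 0, 3, 9, 12 and 18, with the word Dox in the sample name. The labels do not say what Dox was or when it was given, which promoter drove Pramel7 or Ctbp2, or whether a line is 1 clone. The same parental line and medium are given for every group, and nothing states that replicates came from separate cultures, so p-values measure the spread between these libraries, which may be technical.

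De novo methyltransferases place methyl groups on cytosines of CpG dinucleotides that carried none. Dnmt3a and Dnmt3b are the enzymes, and Dnmt3l has no catalytic activity of its own but binds both and stimulates them. In embryonic stem cells all 3 are expressed, their levels are known to be higher in formative than in naive pluripotent cells, and the mark they set is copied at replication by Dnmt1 with its cofactor Uhrf1 and removed through the Tet oxidases.

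The 3 symbols matched a RefSeq table of assembly GRCm38.p6, which places Dnmt3a on chr12:3801559-3914443, Dnmt3b on chr2:153649411-153687730 and Dnmt3l on chr10:78042287-78063622. RefSeq windows of 300 bases around each annotated start numbered 3 for Dnmt3a, 1 for Dnmt3b and 3 for Dnmt3l. The CpG-richest window of each gene is printed because the methylation these enzymes set falls on CpG and because the 3 genes differ in this feature. Each is read 5′ to 3′ on the plus strand of GRCm38.p6, with every CG in capitals.
Dnmt3a, chr12:3806910-3807209: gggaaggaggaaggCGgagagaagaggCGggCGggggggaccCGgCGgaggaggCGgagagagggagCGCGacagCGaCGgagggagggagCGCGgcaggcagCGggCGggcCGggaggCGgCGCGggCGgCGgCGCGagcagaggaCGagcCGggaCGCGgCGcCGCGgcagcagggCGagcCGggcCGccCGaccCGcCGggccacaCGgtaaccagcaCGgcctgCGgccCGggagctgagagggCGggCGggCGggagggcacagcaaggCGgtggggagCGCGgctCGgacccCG
Dnmt3b, chr2:153649199-153649498: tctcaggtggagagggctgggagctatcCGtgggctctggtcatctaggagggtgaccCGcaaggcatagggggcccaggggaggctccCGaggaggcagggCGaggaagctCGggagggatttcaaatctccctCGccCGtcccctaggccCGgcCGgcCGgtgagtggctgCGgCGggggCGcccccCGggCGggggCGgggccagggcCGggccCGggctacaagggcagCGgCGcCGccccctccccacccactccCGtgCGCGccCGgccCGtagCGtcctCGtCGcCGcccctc
Dnmt3l, chr10:78042037-78042336: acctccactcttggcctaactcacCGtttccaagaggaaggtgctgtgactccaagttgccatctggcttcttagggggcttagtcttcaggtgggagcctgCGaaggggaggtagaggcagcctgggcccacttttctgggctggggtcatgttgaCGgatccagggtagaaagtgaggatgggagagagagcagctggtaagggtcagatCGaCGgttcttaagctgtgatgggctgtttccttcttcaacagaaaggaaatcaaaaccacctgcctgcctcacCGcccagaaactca
The Dnmt3a window holds 47 CG and the Dnmt3b window 30, whereas the Dnmt3l window holds 6. The median over 32851 RefSeq promoter windows of the same length was 7. Among those windows 1.4% held at least as many CG as that of Dnmt3a. The shares were 11.7% for that of Dnmt3b and 56.4% for that of Dnmt3l. The unprinted windows held 46 and 18 CG for Dnmt3a and 4 and 3 for Dnmt3l. At least 18 CG were held by 29.7% of all promoter windows. CtBP is brought to DNA by factors such as the Zeb proteins, which bind CACCTG. That motif, searched as CACCTG and CAGGTG so that both strands are covered, occurred in 0 copies in the Dnmt3a window, 1 in that of Dnmt3b and 2 in that of Dnmt3l, and 20.2% of all promoter windows held at least 1. The unprinted windows of Dnmt3a and Dnmt3l held 0 copies. Which annotated start these cells use was not tested. A match describes these letters and not a bound site.

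The genotype libraries held 19944644 to 36025046 counts, those with Pramel7 altered and their controls 10123058 to 30135341, and the time course libraries 16674526 to 30169626. The smallest count of a member was 502 (Dnmt3l in DuxKO of the Pramel7 table). Ctbp1 counts were 1911 and 2109 in the genotype table's WT and at most 4 in the CtbpDKO, Ctbp_DuxTKO and DKO_Dppa2_KO libraries. Ctbp2 RNA was lower in those 3 groups but not absent, at 43.6 and 43.8 CPM in CtbpDKO, 40 and 40.3 CPM in Ctbp_DuxTKO and 36.5 and 37 CPM in DKO_Dppa2_KO, against 211.1 and 214.9 CPM in WT. In the text these groups are called cells without Ctbp by their labels. Dux (listed as Duxf3) had at most 1 count in WT of that table and 0 in DuxKO. Whether the Dux gene is intact in DKO_Dppa2_KO cells, whose title names Dux, was not tested. Differences of that group from CtbpDKO are therefore not assigned to either gene. Dppa2 still had 1027 and 1208 counts in Dppa2KO, against 1707 and 1868 in WT. Pramel7 had 431 and 435 counts in P7OE, but at most 4 in WT of that table, so RNA cannot check the P7KO label. Summed levels of 6 embryonic stem cell markers (Pou5f1, Sox2, Nanog, Zfp42, Sall4 and Utf1) were between 1613 and 2365 CPM (counts per 1000000 counts of the scaled library) in all 34 libraries.

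Levels in CPM are compared only within a gene, since no transcript lengths were used. Where libraries of different groups are said not to overlap, this describes the printed values only. The share of all genes without such overlap is not given here, and with few libraries per group it need not be small. Differences are log2 fold changes with standard errors (SE) from edgeR's quasi-likelihood test, fitted on every tested gene of a table. The adjusted p is by the Benjamini-Hochberg method over all of those genes, and a gene is called below 0.05. Of the 20 comparisons 3 are interaction terms, whose sign is that of a difference between effects. Dnmt3a was called in 11 of the 20 (value above 0 in 6, below 0 in 5), Dnmt3b in 15 (7 above, 8 below) and Dnmt3l in 14 (10 above, 4 below). The share of all tested genes called in a comparison ran from 0.0298% to 41.0% and stands beside each result. Where both Dnmt3b and Dnmt3l were called, their values had the same sign in 10 of 11 comparisons. Dnmt3a and Dnmt3b were both called in 10 comparisons, with the same sign in 6 and opposite signs in 4. Comparisons within a table share libraries, so these counts describe the tables and are not independent trials.

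**Figure D1:**
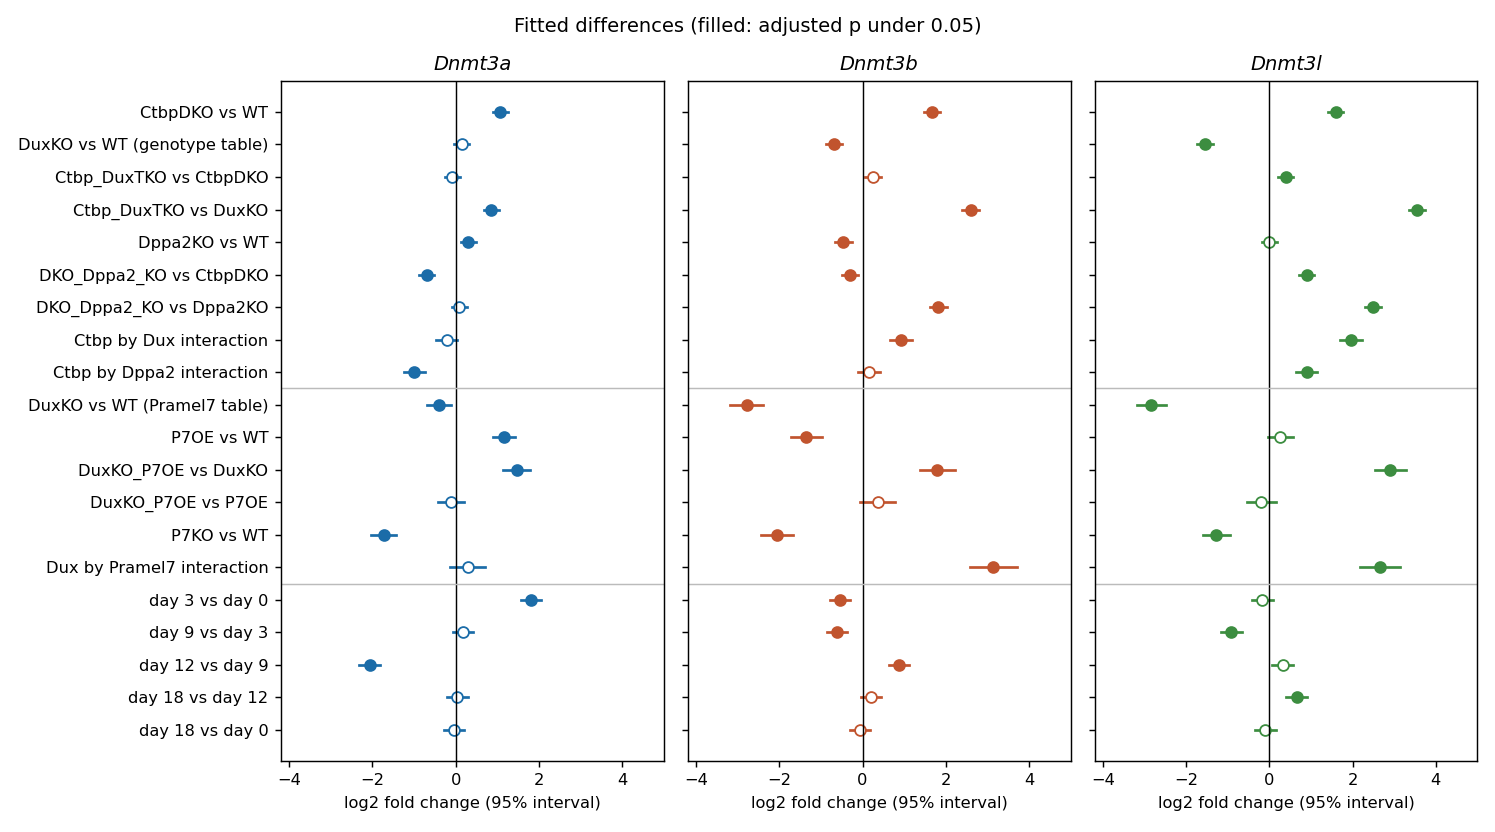
Fitted log2 fold changes of Dnmt3a, Dnmt3b and Dnmt3l (columns) in the 20 comparisons (rows), with 95% intervals; filled points have an adjusted p below 0.05, and grey lines separate the genotype, Pramel7 and time course tables. Dnmt3b and Dnmt3l lie on the same side of 0 in most rows, while Dnmt3a stands apart in the time course, where it reached 1.81 on day 3 against day 0 and -2.06 on day 12 against day 9.

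Both enzymes and their cofactor were higher in CtbpDKO than in WT, by 2.11-fold for Dnmt3a, 3.18-fold for Dnmt3b and 3.03-fold for Dnmt3l. In this comparison 26.1% of all tested genes were called. Dnmt3a stood at 87.5 and 92.8 CPM in the WT libraries and at 196 and 183.7 CPM in CtbpDKO. Dnmt3b stood at 81.6 and 90.2 CPM in WT and at 271.7 and 274.9 CPM in CtbpDKO. Dnmt3l stood at 66.5 and 61.7 CPM in WT and at 197.2 and 190.4 CPM in CtbpDKO. The WT and CtbpDKO libraries did not overlap for any member. The log2 fold changes were 1.07 (SE 0.08, edgeR adjusted p 7.4e-07) for Dnmt3a, 1.67 (SE 0.09, edgeR adjusted p 2.89e-08) for Dnmt3b and 1.60 (SE 0.09, edgeR adjusted p 2.42e-08) for Dnmt3l. Some close protein-coding neighbours were called too, at log2 fold changes of 1.02 (Efr3b) and -0.79 (Asxl2) for Dnmt3a and 1.85 (Nol4l) for Dnmt3b. For Dnmt3l they were Aire (1.73), Icosl (0.74) and Pfkl (-0.22). The neighbours Dtnb, Pomc, Commd7, Mapre1 and Gatd3a were not called. In bulk RNA a change in the number of expressing cells and a change in RNA per cell cannot be told apart.

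The other genes of the pathway did not move as a block in CtbpDKO. Of 29 further methylation genes (19 that set, maintain or guide the mark and 10 that remove or oppose it), 5 were higher and 5 lower, and their median log2 fold change was 0.04 beside 0.01 over all genes. Dnmt1, the maintenance methyltransferase, differed by -0.12 (edgeR adjusted p 0.408). Uhrf1, which brings Dnmt1 to replicated DNA, rose by 0.37 (edgeR adjusted p 0.00423). Setdb1 and Ehmt2, histone H3 lysine 9 methyltransferases, rose by 0.48 and 0.47, and Zfp57, which protects imprinted methylation, fell by 0.50. Tet1 and Tet2 differed by -0.04 (edgeR adjusted p 0.876) and -0.02 (edgeR adjusted p 0.93). Of 14 formative factors, genes of the state between naive and primed pluripotency, 9 were lower and 2 higher in CtbpDKO, so most moved against the members. Lef1, a Wnt effector, fell by 2.12 and Zic2, a zinc finger transcription factor, by 1.23. Of 12 naive factors 3 were higher and 5 lower, among them Prdm14, a factor known to repress Dnmt3b, which fell by 0.70 (edgeR adjusted p 0.00902). Of 18 germline genes whose promoters are known to be methylated, 17 were tested, 9 were higher and 1 was lower, led by Brdt with a log2 fold change of 2.50. Markers of some other cell types were also higher in CtbpDKO. Summed levels went from 19.9 and 21.4 CPM in WT to 44 and 49.3 CPM for 6 trophoblast markers (2 of 5 tested called higher), and from 1.75 and 2.18 to 11.3 and 11.6 CPM for 6 fibroblast markers (1 of 3). They went from 5.71 and 6.64 to 14 and 14.8 CPM for 5 mesoderm markers (1 of 3), and from 27.3 and 31.9 to 37.8 and 39.8 CPM for 6 endoderm markers (4 of 6). The fibroblast sum was mostly Thy1, since no other gene of that list exceeded 1.02 CPM in any genotype library. The mesoderm sum was mostly Eomes, since no other gene of that list exceeded 1.43 CPM there. These sums thus do not show a rise of the whole list. None of the trophoblast, fibroblast, mesoderm and endoderm lists had a called lower gene. Of 6 neural markers 2 were called higher and 2 lower, with sums of 89.5 and 92 CPM in WT and 99 and 103.5 CPM in CtbpDKO. The part of all these markers in the member differences was not tested.

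**Figure D2:**
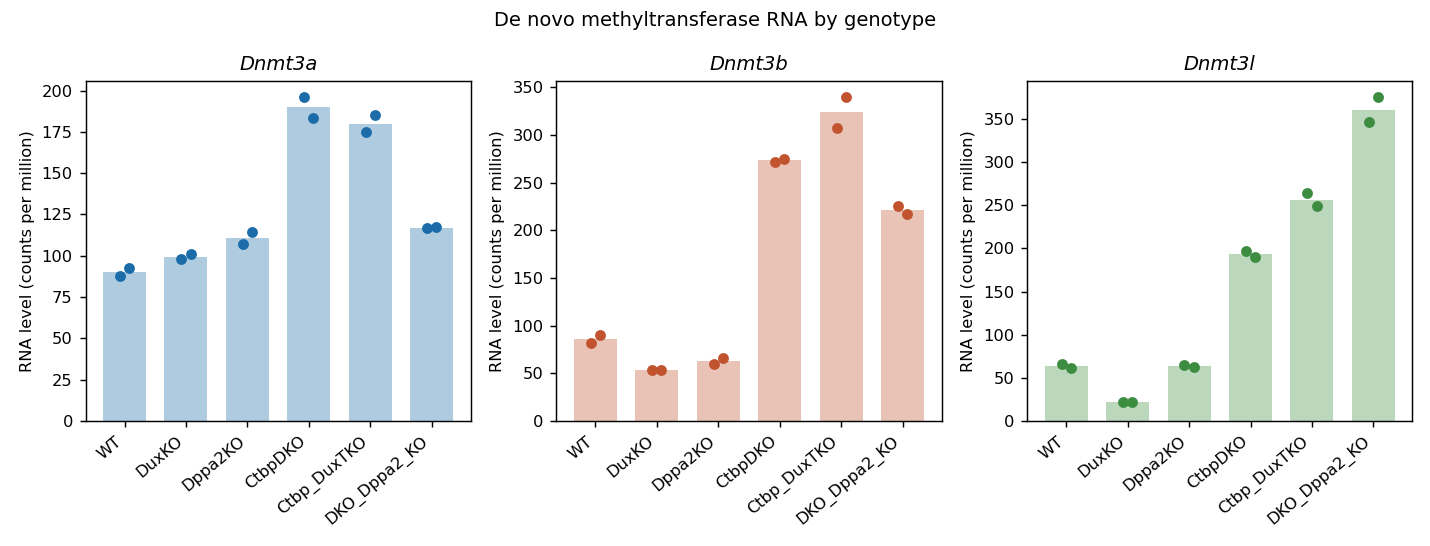
RNA levels in CPM of the 3 members in the 6 groups of the genotype table; points are libraries and bars are the means of 2 libraries. The 3 groups without Ctbp genes lie above WT for Dnmt3b and Dnmt3l, whereas Dnmt3a of DKO_Dppa2_KO, at 117 and 117.2 CPM, lies far below CtbpDKO.

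Dnmt3b and Dnmt3l were lower in DuxKO than in WT, and were not lower in Ctbp_DuxTKO than in CtbpDKO. In DuxKO of the genotype table Dnmt3b was at 53 and 53.8 CPM, below both WT libraries, and fell by 0.69 (SE 0.09, edgeR adjusted p 0.000198). Dnmt3l was at 22 and 21.7 CPM and fell by 1.55 (SE 0.09, edgeR adjusted p 2.94e-07), a 2.93-fold drop. Dnmt3a was at 98.2 and 100.9 CPM and its difference of 0.14 (SE 0.08, 95% interval -0.04 to 0.32) did not pass the threshold (edgeR adjusted p 0.266). In this comparison 2 of 3 members were called, beside 17.5% of all genes. Neighbours were called too, at -2.64 (Aire), -0.77 (Icosl) and -0.28 (Pfkl) for Dnmt3l and -1.19 (Nol4l) and 0.36 (Mapre1) for Dnmt3b. Beside Dnmt3a, Efr3b (-1.02) and Asxl2 (-0.66) were called, and the other neighbours were not. The 6 endoderm markers fell in the same libraries, to a sum of 7.38 and 7.86 CPM from 27.3 and 31.9 CPM in WT, with 5 of 6 called lower and 0 higher. Of 12 naive factors 7 were lower and 1 higher. Their part in the member differences was not tested. Without Ctbp, Ctbp_DuxTKO had 307.8 and 339.6 CPM of Dnmt3b, 263.7 and 248.9 CPM of Dnmt3l, and 175 and 185 CPM of Dnmt3a. Dnmt3l was thus higher than in CtbpDKO by 0.40 (SE 0.08, edgeR adjusted p 0.0103), a call lost without CtbpDKO replicate 1 (0.058), CtbpDKO replicate 2 (0.0804) or Ctbp_DuxTKO replicate 1 (0.0855, all edgeR adjusted p). The differences of Dnmt3b, 0.24 (95% interval 0.05 to 0.44, edgeR adjusted p 0.115), and of Dnmt3a, -0.08 (95% interval -0.25 to 0.10, edgeR adjusted p 0.627), did not pass. That is 1 of 3 members beside 8.15% of all genes. Of the neighbours only Aire was called there, at 0.88.

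The difference between the 2 Dux effects was itself past the threshold for Dnmt3b and Dnmt3l. The interaction term, the effect of Dux loss without Ctbp minus that with Ctbp, was 0.93 (SE 0.13, edgeR adjusted p 0.000276) for Dnmt3b and 1.96 (SE 0.12, edgeR adjusted p 5.43e-07) for Dnmt3l. For Dnmt3a it was -0.22 (95% interval -0.47 to 0.03, edgeR adjusted p 0.21). These are 2 of 3 members beside 19.5% of all genes. Neighbours called in this term were Aire (3.51), Icosl (1.29) and Pfkl (0.49) for Dnmt3l and Efr3b (1.23) and Asxl2 (0.76) for Dnmt3a. The neighbours of Dnmt3b were not called. Read the other way, Ctbp_DuxTKO exceeded DuxKO by 2.60 for Dnmt3b (6.06-fold), 3.55 for Dnmt3l (11.7-fold) and 0.85 for Dnmt3a (1.81-fold), with all 3 called beside 41.0% of all genes. In that contrast Aire (5.25), Icosl (2.03) and Pfkl (0.27) beside Dnmt3l were called higher too, as were Nol4l (2.65) and Efr3b (2.25). Gatd3a (-0.36) and Dtnb (-0.38) were called lower. Of the 29 other methylation genes, 2 were higher and 2 lower in Ctbp_DuxTKO than in CtbpDKO. Dnmt1 differed by -0.20 (edgeR adjusted p 0.231), Uhrf1 by -0.13 (edgeR adjusted p 0.363), Tet1 by 0.20 (edgeR adjusted p 0.432) and Tet2 by 0.12 (edgeR adjusted p 0.513). In the same comparison 7 of 14 formative factors were higher and 1 lower, with Lef1 at 2.78, Fgf5, a marker of the formative epiblast, at 2.36 and Otx2, a formative transcription factor, at 1.55. Markers of endoderm moved as well. The summed level of Gata6, Gata4, Sox17, Pdgfra, Dab2 and Sox7 was 131.2 and 133.7 CPM in Ctbp_DuxTKO against 37.8 to 39.8 CPM in CtbpDKO, with 5 of 6 called higher, and its part in the Dnmt3l difference was not tested.

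In Dppa2KO, where Dppa2 RNA was still present, the called differences of the members from WT were at most 1.37-fold. Dnmt3b was at 59.5 and 65.6 CPM, 1.37-fold below WT (log2 fold change -0.46, SE 0.09, edgeR adjusted p 0.00434). That call was lost without WT replicate 2, where the value was -0.38 (edgeR adjusted p 0.0553). Dnmt3a was at 107.1 and 114.5 CPM, higher than WT by 0.30 (SE 0.08, edgeR adjusted p 0.0266). It too was lost without WT replicate 1 (0.173), WT replicate 2 (0.0835) or Dppa2KO replicate 2 (0.132), with no filter on low counts (0.0511) and with only these groups in the fit (0.079, all edgeR adjusted p). Dnmt3l was at 65.2 and 62.8 CPM, with a difference of 0.00 from WT (95% interval -0.18 to 0.18, edgeR adjusted p 0.998). So 2 of 3 members were called, in opposite directions, beside 16.4% of all genes. Called neighbours were Aire (0.69), Pfkl (0.5), Icosl (-0.72) and Asxl2 (-0.55). Germline genes known as methylation targets moved far more in the same libraries, with 14 of 17 tested lower and 0 higher. Among them Ddx4, a germ cell RNA helicase, had 146 and 131 counts in WT and 0 in both Dppa2KO libraries. Of the 29 other methylation genes 6 were higher and 2 lower, with Dnmt1 at -0.11 (edgeR adjusted p 0.457), Uhrf1 at 0.08 (edgeR adjusted p 0.533), Tet1 at -0.31 (edgeR adjusted p 0.151) and Tet2 at -0.25 (edgeR adjusted p 0.12). Endoderm markers summed to 17 and 20.5 CPM, with 1 of 6 called lower, and trophoblast markers to 14 and 14.1 CPM, with 1 of 5 called lower.

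In cells without Ctbp, the DKO_Dppa2_KO label went with opposite changes of the enzyme Dnmt3a and the cofactor Dnmt3l. Dnmt3a, at 117 and 117.2 CPM, lay 1.62-fold below CtbpDKO (log2 fold change -0.70, SE 0.08, edgeR adjusted p 0.000156). Dnmt3l, at 346.2 and 375.2 CPM, was the highest of the 6 groups and exceeded CtbpDKO 1.86-fold (log2 fold change 0.90, SE 0.08, edgeR adjusted p 2.79e-05). Dnmt3b, at 225.4 and 217.5 CPM, differed by -0.30 (SE 0.09, edgeR adjusted p 0.0353). The Dnmt3b call was lost with any 1 of the 4 libraries left out (edgeR adjusted p 0.0981 to 0.179) and with only these 2 groups in the fit (edgeR adjusted p 0.0611). All 3 members were called beside 15.4% of all genes. Of the neighbours only Aire was called, at 1.15. Against Dppa2KO, the same libraries had 1.82 more Dnmt3b (3.54-fold) and 2.49 more Dnmt3l (5.64-fold) on the log2 scale. Dnmt3a differed there by 0.08 (95% interval -0.10 to 0.26, edgeR adjusted p 0.511), so 2 of 3 were called beside 30.4% of all genes. Called neighbours in that contrast were Aire (2.19), Icosl (1.74), Commd7 (0.89), Nol4l (0.82), Efr3b (0.68), Gatd3a (-0.35) and Pfkl (-0.85). Endoderm markers were lower with the DKO_Dppa2_KO label, at 10.1 and 11.2 CPM against 37.8 and 39.8 CPM in CtbpDKO, with 5 of 6 called lower and 0 higher. Fibroblast markers, in sum mostly Thy1, stood at 4.01 and 4.62 CPM against 11.3 and 11.6 CPM, with 1 of 3 tested called lower. Their part in the member differences was not tested.

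The interaction of Ctbp with Dppa2 passed for the enzyme Dnmt3a and the cofactor with opposite signs, in groups that keep Dppa2 RNA and of which DKO_Dppa2_KO has conflicting labels. It was -1.0 (SE 0.12, edgeR adjusted p 0.000355) for Dnmt3a, 0.90 (SE 0.12, edgeR adjusted p 0.000844) for Dnmt3l and 0.15 (95% interval -0.12 to 0.43, edgeR adjusted p 0.504) for Dnmt3b. That is 2 of 3 members beside 8.23% of all genes. Neighbours called in this term were Icosl (1), Asxl2 (0.54) and Pfkl (-0.62), and Aire (0.45) was not. In DKO_Dppa2_KO against CtbpDKO, 9 of the 29 other methylation genes were lower and 0 were higher, with a median of -0.19 beside -0.03 over all genes. Hells, a chromatin remodeller needed for DNA methylation, fell by 0.82, Dnmt1 by 0.68 (edgeR adjusted p 0.000461), Tet1 by 0.68, Tet2 by 0.49 and Uhrf1 by 0.34. Dnmt3l thus rose in libraries in which every other called gene of the pathway, both enzymes included, fell. Of 17 germline genes 12 were lower and 0 higher, among them Ddx4, with 199 and 274 counts in CtbpDKO and 6 in each DKO_Dppa2_KO library (log2 fold change -4.62, edgeR adjusted p 1.58e-06).

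In the Pramel7 table Dnmt3b and Dnmt3l were again lower in DuxKO than in WT, with larger fitted values than in the genotype table. Dnmt3b was at 360.5, 377.3, 264.3 and 268.8 CPM in the 4 WT libraries and at 51.5 and 40.8 CPM in DuxKO, a 6.89-fold drop (log2 fold change -2.78, SE 0.19, edgeR adjusted p 1.79e-06). Dnmt3l was at 171.3, 177.6, 230.1 and 229.4 CPM in WT and at 28.1 and 28.3 CPM in DuxKO, a 7.17-fold drop (log2 fold change -2.84, SE 0.16, edgeR adjusted p 7.52e-07). Every DuxKO library lay far below every WT library for both genes. Dnmt3a was at 117.2, 121.3, 102.2 and 105.4 CPM in WT and at 84.5 and 84.2 CPM in DuxKO, with a log2 fold change of -0.40 (SE 0.13, edgeR adjusted p 0.0492). The Dnmt3a call was lost without WT replicate 3 (0.0649), WT replicate 4 (0.0935), DuxKO replicate 3 (0.24) or DuxKO replicate 4 (0.251), with no filter (0.0802), with only these groups in the fit (0.0795) and with only WT replicates 5 and 6 (0.09, all edgeR adjusted p). All 3 members were called beside 16.7% of all genes. Aire (-3.77), Icosl (-1.57) and Pfkl (-1.15) beside Dnmt3l were called lower too, as were Nol4l (-1.96) and Efr3b (-0.96). The other neighbours were not called. The lists that fell in DuxKO of the genotype table did not fall here. Endoderm markers summed to 7.40 and 9.12 CPM in DuxKO and to 6.31 to 8.80 CPM in WT, with 0 of 6 called. Of 12 naive factors 4 were higher and 1 lower.

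Between the tables, levels differed more in WT than in DuxKO. WT stood at 85.9 CPM of Dnmt3b in the genotype table and at 317.7 CPM in the Pramel7 table, and at 64 and 202.1 CPM of Dnmt3l, ratios of 3.70 and 3.16. Among 14352 genes at 1 CPM or more in both, 1.73% and 2.59% had WT means that differed by at least these ratios in either direction. DuxKO stood at 53.4 and 46.2 CPM of Dnmt3b and at 21.8 and 28.2 CPM of Dnmt3l in the 2 tables. Dnmt3a of WT stood at 90.1 and 111.5 CPM. The tables were normalized separately, so these levels are set side by side without a test. The WT libraries also fell into pairs, since replicates 3 and 4 had more Dnmt3b and less Dnmt3l than replicates 5 and 6, and the labels give no batch.

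**Figure D3:**
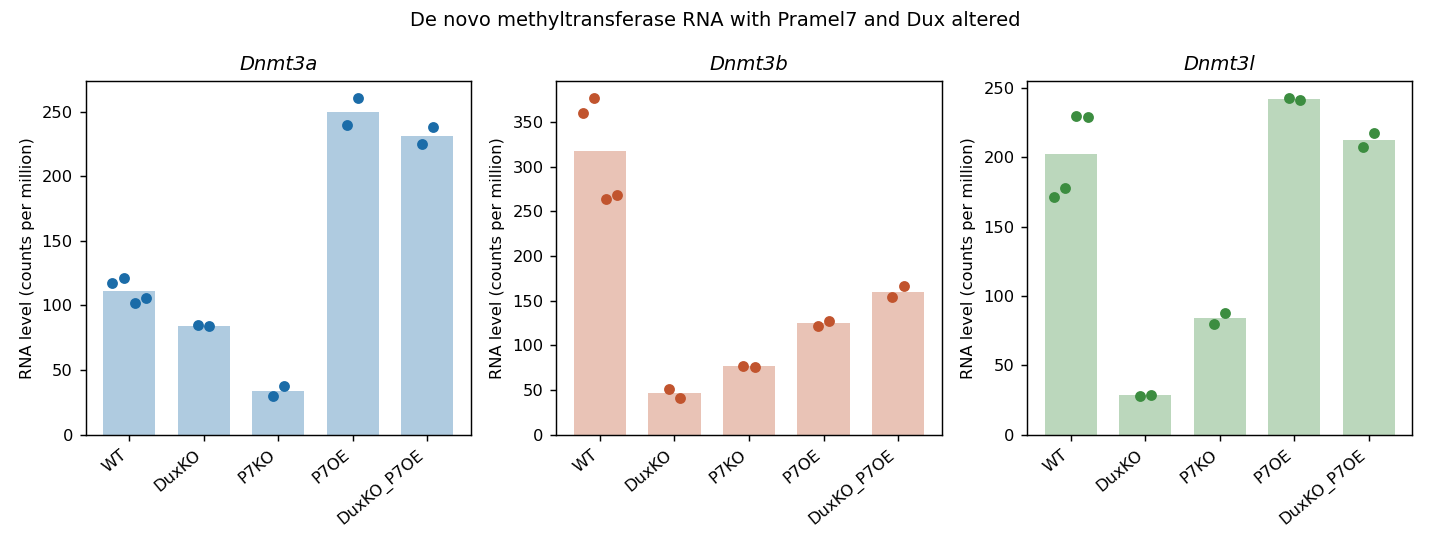
RNA levels in CPM of the 3 members in the 5 groups of the Pramel7 table; points are libraries and bars are means of 4 WT libraries or 2 libraries otherwise. Dnmt3b and Dnmt3l are lowest in DuxKO, Dnmt3a is lowest in P7KO at 29.6 and 37.8 CPM, and the WT libraries split into pairs for Dnmt3b and Dnmt3l.

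With overexpression of Pramel7 in cells with Dux, the enzymes differed from WT in opposite directions. Pramel7 is a leucine-rich repeat protein known to promote loss of Uhrf1. In P7OE Dnmt3a was at 239.5 and 260.8 CPM, above every WT library, and rose 2.24-fold (log2 fold change 1.17, SE 0.12, edgeR adjusted p 4.64e-05). Dnmt3b was at 122.1 and 127.8 CPM, below every WT library, and fell 2.54-fold (log2 fold change -1.35, SE 0.17, edgeR adjusted p 0.000197). Dnmt3l was at 242.9 and 241.4 CPM and differed by 0.26 (95% interval -0.04 to 0.56, edgeR adjusted p 0.21). With only WT replicates 3 and 4 as controls Dnmt3l passed, at 0.43 (edgeR adjusted p 0.00301). These are 2 of 3 members beside 19.9% of all genes. Pfkl (-0.59) was the only neighbour called. Among the other 29 methylation genes 4 were higher and 10 lower. Uhrf1 RNA differed by 0.07 (edgeR adjusted p 0.727), Dnmt1 by 0.39 (edgeR adjusted p 0.0959) and Tet1 by -0.01 (edgeR adjusted p 0.993), while Tet2 rose by 0.96 (edgeR adjusted p 0.00425). The same 6 endoderm markers summed to 74.8 and 78 CPM in P7OE and to 68.3 and 73.3 CPM in DuxKO_P7OE, against 6.31 to 8.80 CPM in the 4 WT libraries. Trophoblast markers were lower in P7OE, at 23.6 and 25 CPM against 42.2 to 74 CPM in WT, with 3 of 5 called lower and 0 higher. Of 4 mesoderm markers 1 was called higher and 2 lower, and of 6 neural markers 1 higher and 3 lower. The part of these markers in the member differences was not tested.

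In cells without Dux, all 3 members were higher with overexpression of Pramel7. DuxKO_P7OE had 224.9 and 237.9 CPM of Dnmt3a, 154.2 and 166.4 CPM of Dnmt3b, and 207.2 and 217.5 CPM of Dnmt3l. Every one of these lay above both DuxKO libraries, by 2.74-fold for Dnmt3a (1.46, SE 0.15), 3.47-fold for Dnmt3b (1.80, SE 0.19) and 7.53-fold for Dnmt3l (2.91, SE 0.17). The edgeR adjusted p was 3.71e-05, 5.54e-05 and 5.17e-07, and all 3 were called beside 21.4% of all genes. Dnmt3l thereby reached the range of the WT libraries, while both Dnmt3b values stayed below every WT library. Neighbours called higher too were Aire (3.68), Nol4l (2.44), Efr3b (1.9) and Pfkl (0.69), while Asxl2 (-0.52) and Mapre1 (-0.47) were called lower. Of the 29 other methylation genes 0 were higher and 7 lower in the same comparison, with a median of -0.31 beside -0.03 over all genes. Dnmt1 was at -0.28 (edgeR adjusted p 0.306), Uhrf1 at -0.23 (edgeR adjusted p 0.243), Tet1 at 0.38 (edgeR adjusted p 0.577) and Tet2 at 0.09 (edgeR adjusted p 0.815). All 6 of 6 endoderm markers were called higher, and of 5 trophoblast markers 4 were lower and 0 higher. Among 14 formative factors 6 were higher and 3 lower. The part of these lists in the member differences was not tested.

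The effect of Pramel7 overexpression differed with Dux for Dnmt3b and Dnmt3l. The interaction term was 3.14 (SE 0.26, edgeR adjusted p 3.19e-05) for Dnmt3b and 2.65 (SE 0.22, edgeR adjusted p 3.2e-05) for Dnmt3l, while for Dnmt3a it was 0.29 (95% interval -0.13 to 0.71, edgeR adjusted p 0.415). That is 2 of 3 members beside 7.50% of all genes. Aire (3.54) and Pfkl (1.28) beside Dnmt3l, Nol4l (2.4) beside Dnmt3b and Efr3b (1.5) beside Dnmt3a were called in this term too. Between DuxKO_P7OE and P7OE no member passed, with Dnmt3a at -0.11 (95% interval -0.43 to 0.20), Dnmt3b at 0.36 (-0.05 to 0.77) and Dnmt3l at -0.19 (-0.54 to 0.16), by edgeR. In that comparison 0.0298% of all genes were called, which is 6 genes, while 2250 had an unadjusted p below 0.05 and DESeq2 called 149. Pramel7 itself was at 14 and 26.2 CPM in P7OE and at 49.3 and 56.7 CPM in DuxKO_P7OE, so the overexpression was not matched between these groups.

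All 3 members were lower in P7KO than in WT. Dnmt3a was at 29.6 and 37.8 CPM, 3.31-fold below WT (log2 fold change -1.73, SE 0.14, edgeR adjusted p 1.13e-05). Dnmt3b was at 77.2 and 76.1 CPM, 4.15-fold below (-2.05, SE 0.18, edgeR adjusted p 2.1e-05), and Dnmt3l was at 80.1 and 88 CPM, 2.41-fold below (-1.27, SE 0.15, edgeR adjusted p 0.000202). No P7KO library overlapped a WT library for any member, and 9.48% of all genes were called. The maintenance genes moved the other way, with Dnmt1 up by 0.63 (edgeR adjusted p 0.0225) and Uhrf1 up by 0.40 (edgeR adjusted p 0.0482). Tet1 differed by 0.24 (edgeR adjusted p 0.762) and Tet2 by 0.42 (edgeR adjusted p 0.222), and of all 29 other methylation genes 5 were higher and 1 lower. Naive factors were higher in 5 of 12 cases and lower in 0, with Prdm14 up by 0.98, and formative factors were lower in 5 of 14 and higher in 0, where Fgf5 fell by 3.06 and Pou3f1, a formative transcription factor, fell by 2.53. Markers of other cell types were lower in sum, at 31.1 and 32.1 CPM against 42.2 to 74 CPM in WT for trophoblast (2 of 5 called lower) and at 9.18 and 9.89 CPM against 20.8 to 35.1 CPM for mesoderm (1 of 4), and their part was not tested.

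The drop of Dnmt3a in P7KO ran along a stretch of its chromosome. Of 27 other genes within 10 Mb of its start (protein-coding, mean log2 CPM of at least 2), 24 were called lower and 0 higher, and the median log2 fold change was -0.95, while the other 311 genes of chromosome 12 had a median of -0.02. Toward the inner chromosome the low values ran as far as Hpcal1, 13.9 Mb away, and Asap2, the next gene at 17.3 Mb, was at 0.13. All 36 of 36 genes before that point had negative values, from -1.40 to -0.43, among them the neighbours Asxl2 (-0.81), Dtnb (-1.09) and Efr3b (-0.95). Pomc, the nearest on the other side, is below that level limit and was at -0.40 (edgeR adjusted p 0.674). The window's median against the WT mean was -1.02 and -0.92 in the 2 P7KO libraries and between -0.14 and 0.06 in the other 10 libraries of the table. Dnmt3a fell by 0.78 more than the window's median on the log2 scale. The other 59 windows of this size, around each member in each comparison, had medians from -0.24 to 0.21. Around Dnmt3b and Dnmt3l in P7KO they were 0.06 and 0.04. A median over such a window does not describe single close neighbours. Whether P7KO cells carry fewer copies of this stretch was not tested.

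**Figure D4:**
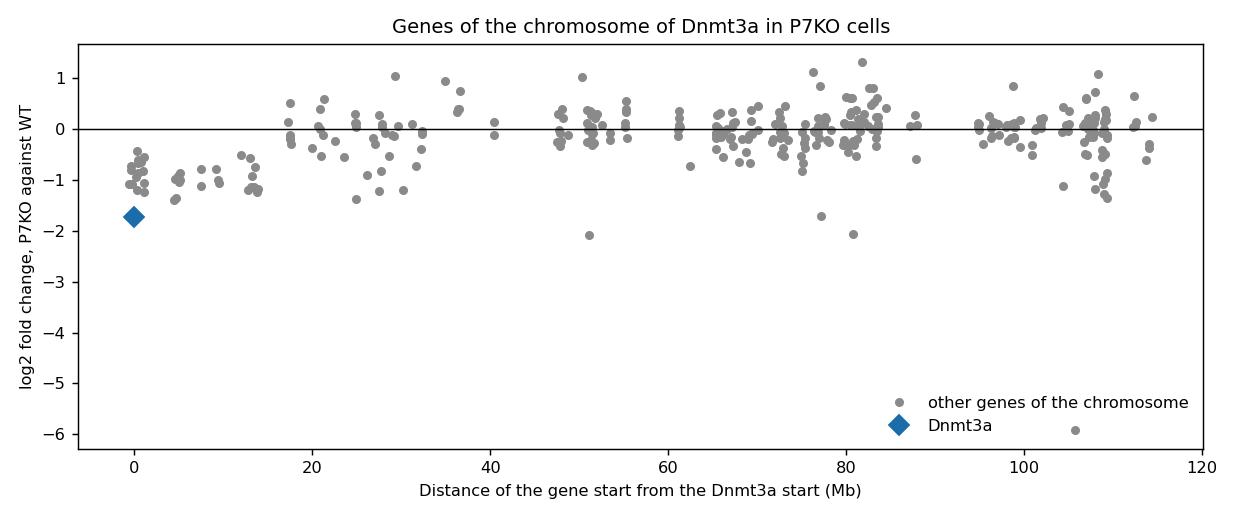
Log2 fold change of P7KO against WT for the genes of the chromosome that holds Dnmt3a, by the distance of their starts from that of Dnmt3a in Mb; each grey point is a gene and the blue diamond is Dnmt3a. The 36 genes up to 13.9 Mb away all lie below 0 with a median of -0.97, and the 302 genes beyond centre on -0.01.

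In the time course Dnmt3a was high on days 3 and 9, the days of high Ctbp2 RNA, while Dnmt3b and Dnmt3l were lowest on day 9. Ctbp2 RNA was at 58.9 and 59.3 CPM on day 0, 544 and 573 CPM on day 3, 296 and 310 CPM on day 9, 44.7 and 49.4 CPM on day 12, and 52.4 and 54.7 CPM on day 18. Dnmt3a was at 103.7 and 124.9 CPM on day 0, at 417.2 and 383.2 CPM on day 3 and at 446.3 and 456.4 CPM on day 9. It then stood at 106.1 and 109.8 CPM on day 12 and at 111.5 and 110.8 CPM on day 18. Every day 3 and day 9 library thus lay above every library of the other days. The log2 fold change of Dnmt3a was 1.81 (SE 0.12, edgeR adjusted p 2.31e-06) on day 3 against day 0 and 0.17 (95% interval -0.07 to 0.42, edgeR adjusted p 0.592) on day 9 against day 3. From day 3 to day 9 Ctbp2 fell by 0.88 (edgeR adjusted p 0.00168), a step at which Dnmt3a was not lower. The log2 fold change of Dnmt3a was -2.06 (SE 0.12, edgeR adjusted p 3.61e-07) on day 12 against day 9 and 0.04 (edgeR adjusted p 0.928) on day 18 against day 12. Its neighbours on day 3 were at 0.39 for Dtnb (edgeR adjusted p 0.0542), 0.34 for Efr3b (edgeR adjusted p 0.467), 0.09 for Asxl2 (edgeR adjusted p 0.762) and -0.46 for Pomc (edgeR adjusted p 0.653), and the genes within 10 Mb had a median of 0.06. On day 12 against day 9, when Dnmt3a fell, Dtnb fell by 0.52 (edgeR adjusted p 0.0154). Efr3b was then at -0.44 (edgeR adjusted p 0.37), Pomc at -0.30 (edgeR adjusted p 0.802) and Asxl2 at 0.14 (edgeR adjusted p 0.622), with a median of -0.05 within 10 Mb.

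**Figure D5:**
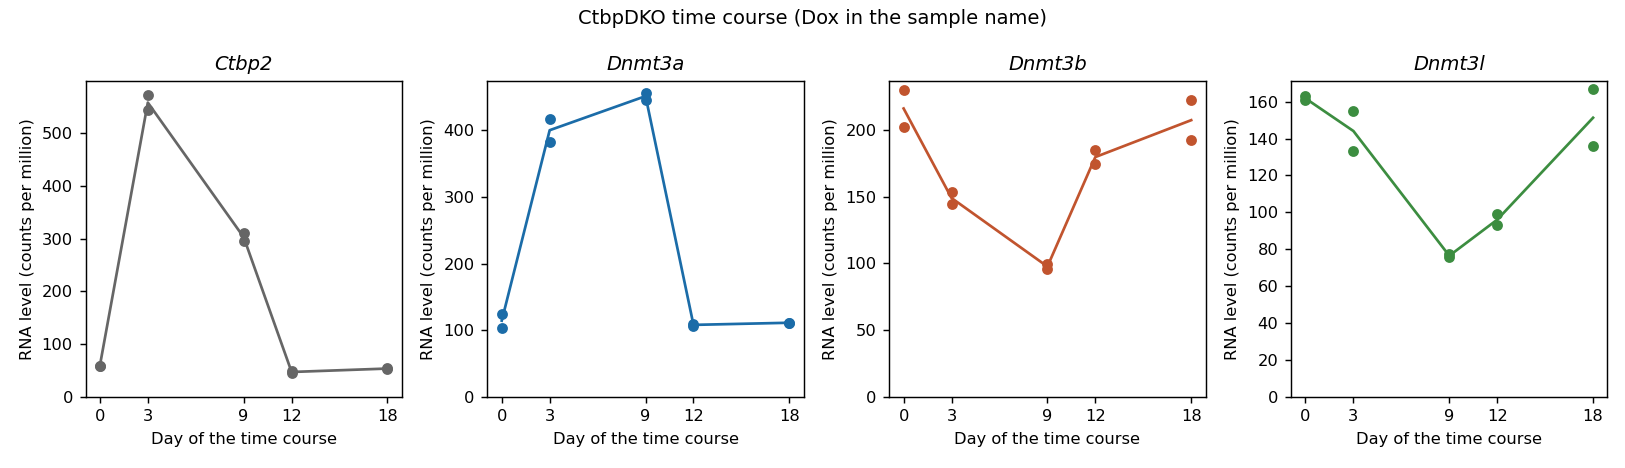
RNA levels in CPM of Ctbp2 and the 3 members by day of the time course; points are libraries and lines join the means of 2 libraries per day. Ctbp2 and Dnmt3a are both high on days 3 and 9, whereas Dnmt3b and Dnmt3l reach their lowest level on day 9.

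Dnmt3b was at 202.3 and 230.1 CPM on day 0, 153.8 and 144.3 CPM on day 3, 99.2 and 96.1 CPM on day 9, 174.6 and 185 CPM on day 12, and 192.5 and 222.4 CPM on day 18. It fell by 0.54 to day 3 (SE 0.11, edgeR adjusted p 0.0142) and by a further 0.61 to day 9 (SE 0.11, edgeR adjusted p 0.0199), then rose by 0.88 to day 12 (SE 0.11, edgeR adjusted p 0.000756). The step to day 3 was lost without day 0 replicate 2 (0.0964) or without day 3 replicate 1 (0.0735) or 2 (0.112), and the step to day 9 without any 1 of its 4 libraries (0.0871 to 0.159, all edgeR adjusted p). Dnmt3l was at 160.7 and 162.8 CPM on day 0, 154.8 and 133.3 CPM on day 3, 77.3 and 75.6 CPM on day 9, 99 and 93 CPM on day 12, and 135.9 and 166.6 CPM on day 18. On day 3 it differed by -0.17 from day 0 (95% interval -0.42 to 0.09, edgeR adjusted p 0.491). It fell by 0.91 from day 3 to day 9 (SE 0.12, edgeR adjusted p 0.00328), differed by 0.33 from day 9 to day 12 (95% interval 0.07 to 0.58, edgeR adjusted p 0.168) and rose by 0.66 to day 18 (SE 0.12, edgeR adjusted p 0.0206). That last call was lost without day 12 replicate 1 (0.141) or 2 (0.205), without day 18 replicate 2 (0.0771) and with only these days in the fit (0.0977, all edgeR adjusted p).

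Against the background of each step, 2 of 3 members were called on day 3 against day 0 beside 4.99% of all genes, and 2 of 3 on day 9 against day 3 beside 1.12%. On day 12 against day 9 it was 2 of 3 beside 3.84%, and on day 18 against day 12 it was 1 of 3 beside 0.820%. Day 18 against day 0 called 0 of 3 beside 0.514%, with Dnmt3a at -0.04 (95% interval -0.29 to 0.20), Dnmt3b at -0.06 (-0.30 to 0.18) and Dnmt3l at -0.10 (-0.35 to 0.16), by edgeR. None of the 3 had an unadjusted p below 0.05 there, and DESeq2 called none of them. Of the 29 other methylation genes 2 were higher and 2 lower on day 3, with Dnmt1 at 0.09 (edgeR adjusted p 0.745), Uhrf1 at -0.18 (edgeR adjusted p 0.48), Tet1 at 0.00 (edgeR adjusted p 0.989) and Tet2 down by 0.59 (edgeR adjusted p 0.00978). Naive factors were lower in 6 of 12 cases on day 3 and higher in 0, with Prdm14 down by 1.18, and formative factors were higher in 2 of 14, Lef1 by 1.47 and Pou3f1 by 1.45. Endoderm markers summed to 62.5 and 70 CPM on day 18 against 17.1 and 21 CPM on day 0.

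The direction of Dnmt3a against Ctbp thus differed between tables. It was 2.11-fold higher in CtbpDKO than in WT of the genotype table, and 3.5-fold higher on day 3, when Ctbp2 RNA was high, than on day 0. Dnmt3a stood at 189.9 CPM in CtbpDKO and 114.3 CPM on day 0, where Ctbp2 was at 43.6 and 43.8 CPM and at 58.9 and 59.3 CPM, while Dnmt3b stood at 273.3 and 216.2 CPM and Dnmt3l at 193.8 and 161.8 CPM. Ctbp2 on day 3 exceeded the 211.1 and 214.9 CPM of WT in the genotype table. These levels come from tables normalized apart and were not tested against each other.

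Each member varied over a different range of groups. Between the lowest and the highest group mean, Dnmt3a spanned 7.42-fold in the Pramel7 table (P7KO to P7OE). Its low end is the group in which the genes around Dnmt3a were lower too. Dnmt3b spanned 6.88-fold in the Pramel7 table (DuxKO to WT), and Dnmt3l spanned 16.5-fold in the genotype table (DuxKO to DKO_Dppa2_KO). In the genotype table the order of Dnmt3a was WT, DuxKO, Dppa2KO, DKO_Dppa2_KO, Ctbp_DuxTKO and CtbpDKO, and the libraries of the last pair of groups overlapped. The order of Dnmt3b was DuxKO, Dppa2KO, WT, DKO_Dppa2_KO, CtbpDKO and Ctbp_DuxTKO without overlap of neighbours. That of Dnmt3l was DuxKO, Dppa2KO, WT, CtbpDKO, Ctbp_DuxTKO and DKO_Dppa2_KO, where the libraries of Dppa2KO and WT overlapped. Across libraries, as a description, Pearson's r of log2 CPM between Dnmt3b and Dnmt3l was 0.92, 0.80 and 0.78 in the genotype (12 libraries), Pramel7 (12 libraries) and time course (10 libraries) tables. Between Dnmt3a and Dnmt3b it was 0.83, 0.37 and -0.86. Libraries of a group share their cells, so these values mostly describe group means.

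The genes most like each member were ranked by the lowest of the 3 within-table correlations among 9441 genes. For Dnmt3a they were Impdh1 (0.83), an enzyme of guanine nucleotide synthesis, Cux1 (0.83), a homeodomain factor, and Clip2 (0.77), a microtubule-binding protein. For Dnmt3b they were Polr3g (0.90), an RNA polymerase III subunit of pluripotent cells, Crip1 (0.89) and Pwwp2b (0.89). For Dnmt3l they were Plekha2 (0.93), Aire (0.90), the autoimmune regulator of the thymus, and Gab1 (0.88), a signalling adaptor. Aire lies on the opposite strand and overlaps the start of Dnmt3l by 1324 bases in GRCm38.p6. Its counts were 1.77 to 15.3 per 100 counts of Dnmt3l, and how reads of the overlap were counted is not given in the sources used here, so the 2 genes' counts may not be independent.

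Near copies added little to these counts. Dnmt3c, a rodent copy of Dnmt3b known from the male germ line, had 0.649 to 7.30 counts per 100 counts of Dnmt3b, and reads shared by the copies could be assigned to either. It was called lower in DuxKO (-3.74, edgeR adjusted p 0.000211) and P7KO (-2.83, edgeR adjusted p 0.00116) of the Pramel7 table and higher in CtbpDKO (1.30, edgeR adjusted p 0.0371), the directions of Dnmt3b. The antisense genes Dnmt3bos and Dnmt3aos had at most 20 and 5 counts in any library, and the pseudogenes Dnmt3a-ps1 and Dnmt3l-ps1 at most 2 and 8. Counts are per gene, so the isoforms of Dnmt3a and Dnmt3b were not separated.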

How the data were processed

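RNA-seq of 34 libraries was used; the 6 bisulfite libraries were not analysed here. The deposited tables hold raw whole-number counts per gene symbol, with no normalization by the authors. Trim Galore, HISAT2, featureCounts and build mm10 are named in the submitters' processing notes without versions, and the strand setting is not given in the sources used here. Libraries were grouped by their labels and each table was fitted alone in edgeR 4.0.16 (R 4.3.3): filterByExpr, trimmed mean of M values, group as the only term, quasi-likelihood F test and Benjamini-Hochberg adjustment over 21193, 20161 and 20612 genes. The prior count was 0.125 for fitted log2 fold changes and 2 for the log2 CPM behind correlations. The scripts were run on simulated counts for CtbpDKO against WT, DuxKO against WT of the Pramel7 table, and day 3 against day 0. Of simulated 1.5-fold changes 12.5%, 3.12% and 20.4% were recovered, and of 2-fold changes 42.1%, 27.8% and 50.5%. A difference that did not pass can thus be a missed one. The changed genes were drawn from all tested genes, so these shares do not describe the members alone. Fewer genes were changed in each simulation than were called in the data, which makes the adjusted p stricter there. Recovery in the data may thus be higher than these shares. Counts of libraries within a group differed beyond sampling noise (chi-square per gene 12.9 to 147), so none was a copy.

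The members and gene lists were chosen with earlier results of these data known. Named beside the members are the targeted genes, Dnmt1, Uhrf1, Prdm14, Tet1, Tet2, up to 3 called list genes per direction with the largest change and 3 genes by likeness. The windows of 10 Mb, gene neighbours and levels set across tables were chosen after seeing the data. Alternatives were other scaling, no filter, DESeq2 1.42.0, fewer groups, blocks and left-out libraries.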

Additional observations from a re-analysis of the deposited data

Results flagged for a closer look

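In 6 cases a test found that a member's change in 1 genetic background differed from its change in another. The effect of Dux loss in cells labelled without Ctbp exceeded that in cells with Ctbp by 0.93 on the log2 scale for Dnmt3b and by 1.96 for Dnmt3l. The difference that goes with the Dppa2 knockout label differed between cells labelled without and with Ctbp by 0.90 for Dnmt3l and by -1.0 for Dnmt3a. Both Dppa2 knockout groups keep Dppa2 RNA, and the title and description of DKO_Dppa2_KO conflict. The effect of Pramel7 overexpression in DuxKO cells exceeded that in cells with Dux by 3.14 for Dnmt3b and by 2.65 for Dnmt3l. Each is an interaction term past an adjusted p of 0.05 by edgeR, and each kept that call under all alternatives run.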

How the results depend on the processing

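Of 40 called member results, 32 kept their direction and call under every alternative run. Over the 494 alternative values of called results, 462 kept the call, 32 lost it and 0 changed direction. Over the 238 of results that were not called, 228 stayed so without a change of sign, 1 became a call and 9 changed sign. Dnmt3l in Dppa2KO against WT, at 0, changed sign around 0 with RLE size factors (0), no filter (0) and DESeq2 (0). With no filter on low counts Dnmt3a was no longer called in Dppa2KO against WT (0.30) and in DuxKO against WT of the Pramel7 table (-0.42). With only the groups compared in the fit the same held for Dnmt3a in Dppa2KO (0.29), Dnmt3b in DKO_Dppa2_KO against CtbpDKO (-0.28), Dnmt3a in DuxKO of the Pramel7 table (-0.43) and Dnmt3l on day 18 against day 12 (0.66). With WT replicates 5 and 6 as the only controls Dnmt3a in DuxKO was at -0.32 without a call, and with WT replicates 3 and 4 alone Dnmt3l in P7OE became a call (0.43). The causes were not tested.

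The number of genes called moved more than the members did. DuxKO_P7OE against P7OE called 6 genes, and 350 with no filter, 149 by DESeq2 and 63 with only these groups in the fit. With only the groups compared, DuxKO against WT of the Pramel7 table called 2104 and P7KO against WT 1073. With WT replicates 3 and 4 alone P7OE called 6124, P7KO 4693 and the Dux by Pramel7 interaction 3184, and with replicates 5 and 6 alone that interaction called 2763. With no filter the steps to days 3, 9, 12 and 18 called 1634, 789, 1361 and 652, and day 18 against day 0 called 566. DESeq2 called 394 on day 9 against day 3, 267 on day 18 against day 12 and 224 on day 18 against day 0. With only the groups compared day 18 called 60 against day 12 and 40 against day 0. The cause was not tested.

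Replicate numbers did not pair the libraries: the correlation of same-numbered deviations from group means was between -0.10 and 0.09 over all pairs of groups. A replicate block gave 5132 genes called in CtbpDKO against WT, 112 on day 18 against day 12 and, with only these groups (added after seeing the data), 738 in DuxKO_P7OE against P7OE. It changed no call of a member.

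With 1 library left out at a time, an arm of 1 library is assumed to vary like the other groups. The genes called in CtbpDKO against WT ranged from 3543 to 4048, in DuxKO from 1825 to 2046, in Dppa2KO from 1616 to 2379, in Ctbp_DuxTKO against CtbpDKO from 558 to 1250 and in DKO_Dppa2_KO against CtbpDKO from 1272 to 2058. The interactions of Ctbp with Dux and Dppa2 ranged from 2638 to 3710 and from 773 to 1310. In the Pramel7 table DuxKO ranged from 1208 to 3533, P7OE from 1477 to 4818, P7KO from 518 to 2426, DuxKO_P7OE against DuxKO from 1925 to 2675 and against P7OE from 2 to 11, and the interaction from 651 to 1939. The steps to days 3, 9, 12 and 18 ranged from 340 to 607, 51 to 101, 210 to 303 and 38 to 213, and day 18 against day 0 from 27 to 233. Among members, Dppa2KO against WT ranged from 0.25 to 0.35 for Dnmt3a, from -0.53 to -0.38 for Dnmt3b and from -0.06 to 0.06 for Dnmt3l. Dnmt3l in Ctbp_DuxTKO against CtbpDKO ranged from 0.36 to 0.44, Dnmt3b in DKO_Dppa2_KO against CtbpDKO from -0.33 to -0.28 and Dnmt3a in DuxKO of the Pramel7 table from -0.47 to -0.37. Dnmt3b ranged from -0.63 to -0.44 on day 3 and from -0.65 to -0.56 on day 9, and Dnmt3l from 0.51 to 0.80 on day 18 against day 12. On day 18 against day 0 the ranges were -0.17 to 0.10 for Dnmt3a, -0.15 to 0.04 for Dnmt3b and -0.23 to 0.04 for Dnmt3l. Most groups hold 2 libraries, which limits the precision, and no alternative varied depth.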
